A study of Rattus norvegicus with 36 samples.

Results

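A set of 8 genes, Slc34a2, Mfsd4a, Car2, Clca1, Fabp3, Prr27, Obp3 and Lbp, was followed in the rat mammary gland after exposure to a carcinogen. The genes were selected from these same arrays for their changes 30 d after treatment and for their links to secretion, so their values at 30 d are given as a description without a test. They are measured by 11 of the 31099 probe sets of the table: Car2, Clca1 and Obp3 have 2 probe sets each, and the other genes have 1 each. All 11 probe sets passed the filter on dim signals, and where a gene has 2, the one with the higher mean over all arrays stands for it.

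The study used rats of the inbred strains F344 and Cop, which are known to differ in their susceptibility to mammary cancer. Rats, given as 55 days old in every group, received either N-nitrosomethylurea (NMU), an alkylating mammary carcinogen, or saline vehicle, and glands were taken after 6 h, 1 d or 30 d. This gives 12 groups of 3 arrays, 36 in all: F344 control and F344 NMU at each of the 3 times, and Cop control and Cop NMU at each of the 3 times. For replicate 2 of the Cop controls at each time, the source name reads FCop while title and description read Cop, and these 3 arrays were grouped by title. Without that array limma called 0 of the 8 genes in Cop at 6 h, and between the strains 1 at 6 h and 2 at 1 d. No source used here gives the dose of NMU. Replicates are called biological in the labels, but nothing more says that each came from a separate animal, so p-values measure the spread between these arrays. RNA came from whole gland, where fewer cells of a type and less RNA per cell cannot be told apart.

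In the mammary gland the luminal epithelium takes up nutrients and ions from blood and secretes them with milk proteins and lipid, and this machinery is built up as alveoli develop. Prolactin acting through STAT5, together with factors such as Elf5, drives that program. Slc34a2 is a sodium-phosphate cotransporter of secretory epithelia, and Mfsd4a is a carrier of the major facilitator superfamily. Car2 is a cytosolic carbonic anhydrase, and Clca1 belongs to the CLCA proteins, secreted regulators of chloride channels. Fabp3 binds fatty acids in the cytosol. Prr27 encodes a proline-rich protein and lies in the casein gene neighbourhood, between Odam and Csn1s2b. Obp3 belongs to the lipocalins of the alpha-2u globulin family, small carriers of hydrophobic ligands, and Lbp is the secreted lipopolysaccharide-binding protein of the acute phase response.

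Sequence upstream of the start was listed for 6 of the 8 genes in the RefSeq promoter table (build GRCr8). It is shown for Slc34a2, Clca1 and Prr27, whose arrays separated by treatment in both strains at 30 d and which had the largest differences there in F344, in Cop at 6 h and in Cop at 30 d, respectively. Each run is the 250 bases before the annotated start on the minus strand. Capitals mark a match to the STAT palindrome TTCNNNGAA or to the C/EBP palindrome TTGCGCAA, which read the same on both strands and do not overlap here.
Slc34a2: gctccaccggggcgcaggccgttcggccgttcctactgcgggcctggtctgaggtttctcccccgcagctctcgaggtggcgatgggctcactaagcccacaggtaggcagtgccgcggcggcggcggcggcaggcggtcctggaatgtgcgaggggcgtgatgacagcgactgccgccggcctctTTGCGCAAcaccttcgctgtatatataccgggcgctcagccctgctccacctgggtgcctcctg
Clca1: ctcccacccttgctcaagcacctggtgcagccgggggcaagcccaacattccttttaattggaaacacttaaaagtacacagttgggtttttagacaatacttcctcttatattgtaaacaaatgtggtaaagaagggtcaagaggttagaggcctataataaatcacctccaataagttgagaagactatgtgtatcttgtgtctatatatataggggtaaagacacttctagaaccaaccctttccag
Prr27: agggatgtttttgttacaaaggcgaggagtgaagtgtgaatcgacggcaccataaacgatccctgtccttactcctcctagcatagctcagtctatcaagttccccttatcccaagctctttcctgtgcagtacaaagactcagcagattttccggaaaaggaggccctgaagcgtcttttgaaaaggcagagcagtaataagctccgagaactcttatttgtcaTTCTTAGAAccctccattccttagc
These are chr14:62143073-62143322 for Slc34a2, chr2:236624715-236624964 for Clca1 and chr14:20527862-20528111 for Prr27. The Slc34a2 window holds the C/EBP palindrome 64 to 57 bases before the start, a match found in 0.14% of the 33469 windows of this length. The Prr27 window holds the STAT palindrome 25 to 17 bases before the start, and 7.67% of windows hold it. Neither string of letters is in the Clca1 window, and each was found in 1 of the 6 genes with a window. A match describes letters only.

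Values are the authors' expression values on the log2 scale, with array medians between 5.66 and 5.77, and differences are log2 differences with a standard error (SE) from a limma model over all 36 arrays. The SE pools the spread of all 12 groups, so it is the same in both strains and does not measure the spread at 30 d. For Car2 the standard deviation at 30 d was 1.53 in F344 controls and 1.23 in Cop controls. It was 0.22 and 1.05 in the NMU glands, and 0.15 in F344 controls at 1 d. A probe set is called when its adjusted p (Benjamini-Hochberg over the 20749 probe sets tested) is under 0.05. Of 22 luminal epithelium markers measured, 21 were above the 40th percentile of their array on all 36 arrays. That percentile is the one used to filter dim signals and lies below the array median, so passing it is a weak sign of epithelium. Marker means over all arrays ran from 5.62 for Krt7 to 10.48 for Epcam. The content of other tissue varied, and F344 control replicate 2 at 30 d, Cop NMU replicate 1 at 6 h and Cop NMU replicates 1 and 3 at 30 d were among the arrays that stood apart from their groups in 1 or more marker scores. At 1 d, F344 NMU replicate 1 had a muscle score of -2.21 against 2.34 and 1.13, Cop NMU replicate 1 had -2.37 against 1.03 and -0.30, and Cop control replicate 3 had a B cell score of 1.44 against -0.08 and 0.20. A score, the mean of a marker list after centring each gene on its mean, ran for skeletal muscle from -3.53 to 2.73 over the arrays. The replicates most alike were numbers 1 and 2 of F344 control at 1 d, with a root mean square difference of 0.237, the next pair having 0.267.

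At 30 d, 7 of the 8 genes were lower on average in NMU than in control glands of F344, and 8 of 8 in Cop. In each strain 6 of the 8, namely Slc34a2, Mfsd4a, Car2, Clca1, Fabp3 and Prr27, had every NMU array below every control array, and Obp3 and Lbp overlapped. The same separation downward was seen for 12.5% of all probe sets tested in F344 and for 9.08% in Cop. The median difference of the 8 genes was -2.03 in F344 and -2.14 in Cop, where that of all genes tested was -0.05 and -0.03. These genes were chosen on this contrast, so the counts describe the choice.

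**Figure D1:**
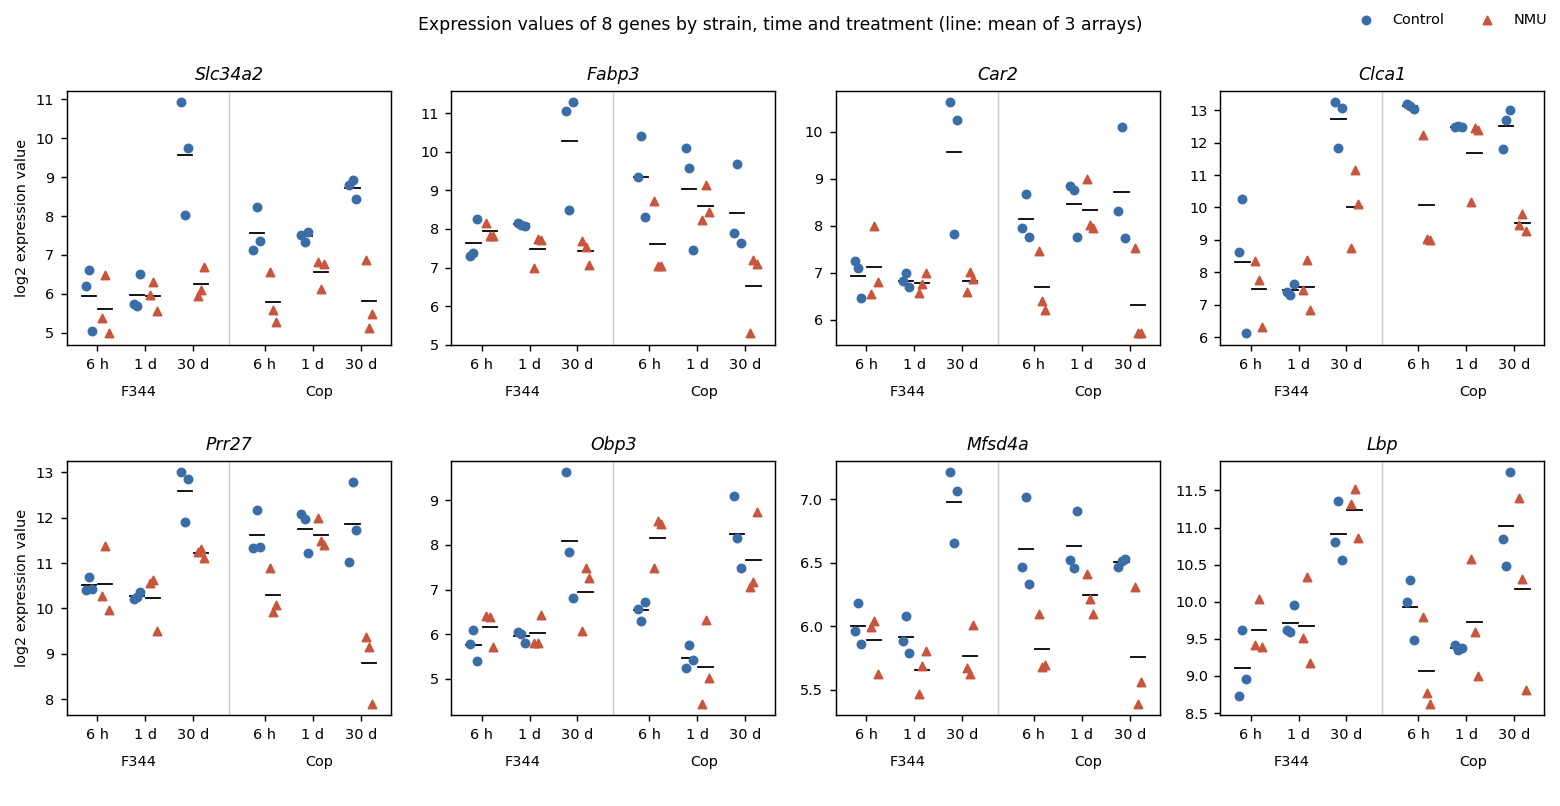
Log2 expression value of each of the 8 genes on all 36 arrays, by strain and time on the x axis. Circles are control arrays, triangles are NMU arrays and lines are means of 3 arrays. At 30 d the triangles lie below the circles in both strains for 6 genes, and overlap them for Obp3 and Lbp.

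Slc34a2, the phosphate cotransporter, stood in F344 at 30 d at 10.93, 8.02 and 9.74 on the 3 control arrays and at 5.94, 6.10 and 6.68 on the NMU arrays. In Cop it stood at 8.80, 8.92 and 8.43 on control arrays and at 6.87, 5.11 and 5.47 on NMU arrays. The NMU arrays were all low, and the spread was widest in F344 controls, whose replicate 2 was the lowest control. The difference was -3.32 (SE 0.546), or 9.99-fold, in F344 and -2.89 (SE 0.546), or 7.43-fold, in Cop. Both 30 d control groups stood above every other group: the 8 groups of 6 h and 1 d had means from 5.61 in F344 NMU at 6 h to 7.57 in Cop control at 6 h. In the order of the 12 group means, 9 of the 11 neighbouring pairs had overlapping arrays.

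Mfsd4a, the other carrier, covered a narrower range. F344 control arrays at 30 d read 7.21, 6.65 and 7.07, and NMU arrays read 5.67, 5.62 and 6.01. Cop control arrays read 6.47, 6.52 and 6.53, and NMU arrays read 6.31, 5.39 and 5.56. The 3 Cop controls were close together, and Cop NMU replicate 1 lay near them. The difference was -1.21 (SE 0.203) in F344 and -0.75 (SE 0.203) in Cop. F344 control at 30 d was the highest of the 12 groups and F344 NMU at 1 d the lowest, with a mean of 5.65, and 10 of 11 neighbouring pairs overlapped.

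Car2, the carbonic anhydrase, read 10.63, 7.82 and 10.25 on F344 control arrays at 30 d and 6.59, 7.01 and 6.87 on NMU arrays. It read 8.31, 10.10 and 7.75 on Cop control arrays and 7.53, 5.72 and 5.71 on NMU arrays. As for Slc34a2, F344 control replicate 2 was low and Cop NMU replicate 1 was high for its group. The difference was -2.74 (SE 0.618) in F344 and -2.40 (SE 0.618) in Cop. The other Car2 probe set followed the same pattern (r = 0.974 over 36 arrays), with differences of -2.34 and -1.73. The early groups had means from 6.69 in Cop NMU at 6 h to 8.46 in Cop control at 1 d, and every neighbouring pair in the order overlapped.

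Clca1, the CLCA protein, read 13.25, 11.85 and 13.05 in F344 controls at 30 d and 8.77, 11.17 and 10.12 after NMU. In Cop it read 11.81, 12.71 and 13.00 in controls and 9.45, 9.81 and 9.27 after NMU. The 2 strains' 30 d controls were alike in level, which was not so at the earlier times. The difference was -2.70 (SE 0.865) in F344 and -3.00 (SE 0.865) in Cop, and -3.16 and -3.46 on the other probe set (r = 0.993). The lowest group mean was 7.44 in F344 control at 1 d and the highest 13.12 in Cop control at 6 h. The only neighbours in the order without overlap were Cop control and Cop NMU at 1 d.

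Fabp3, the fatty acid carrier, read 11.06, 8.50 and 11.28 on F344 control arrays at 30 d and 7.68, 7.53 and 7.07 on NMU arrays. It read 7.89, 9.69 and 7.63 on Cop control arrays and 5.29, 7.21 and 7.10 on NMU arrays. The lowest control and the highest NMU array were close in Cop. The difference was -2.85 (SE 0.719) in F344 and -1.87 (SE 0.719) in Cop. The 8 early groups had means from 7.47 in F344 NMU at 1 d to 9.36 in Cop control at 6 h, and all 11 neighbouring pairs overlapped. A heart and muscle protein as well, Fabp3 was related weakly to the muscle score (r = -0.326 over 36 arrays). That value mixes differences between groups. With each array taken as its deviation from its group mean, r was 0.162.

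Prr27, the gene from the casein neighbourhood, read 13.00, 11.90 and 12.86 in F344 controls at 30 d and 11.23, 11.32 and 11.12 after NMU. In Cop it read 11.03, 12.80 and 11.73 in controls and 9.36, 9.15 and 7.90 after NMU. Cop NMU glands at 30 d were the lowest of the 12 groups, without overlap with the next. The difference was -1.36 (SE 0.434), or 2.57-fold, in F344 and -3.05 (SE 0.434), or 8.27-fold, in Cop. Between the NMU glands of the strains, the difference of Cop minus F344 was -2.42 (SE 0.434), with all Cop arrays below all F344 arrays. Prr27 was the only one of the 8 genes whose NMU arrays separated by strain at 30 d. The share of all probe sets that did so was not counted.

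The secreted carriers Obp3 and Lbp behaved otherwise. Obp3 read 9.63, 7.83 and 6.80 in F344 controls at 30 d and 6.07, 7.49 and 7.26 after NMU, a difference of -1.15 (SE 0.556). In Cop it read 9.09, 8.15 and 7.48 in controls and 7.06, 7.18 and 8.74 after NMU, a difference of -0.58 (SE 0.556). Arrays of both treatments overlapped, and the other Obp3 probe set gave -0.80 in F344 and 0.08 in Cop, so the 2 probe sets disagreed in sign in Cop. Probes of such gene families can bind related transcripts, and the Obp3 probe sets were correlated at r = 0.960 over 36 arrays. Lbp read 10.81, 11.36 and 10.56 in F344 controls and 11.31, 11.52 and 10.86 after NMU, a difference of 0.32 (SE 0.477). In Cop it read 10.84, 10.48 and 11.74 in controls and 11.39, 10.30 and 8.81 after NMU, a difference of -0.85 (SE 0.477). The Cop value rests on replicate 3 of the NMU glands: without it the difference was -0.17. Over time, its 4 groups of 30 d, with means from 10.17 to 11.23, were the 4 highest of the 12, above a highest early mean of 9.92.

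**Figure D2:**
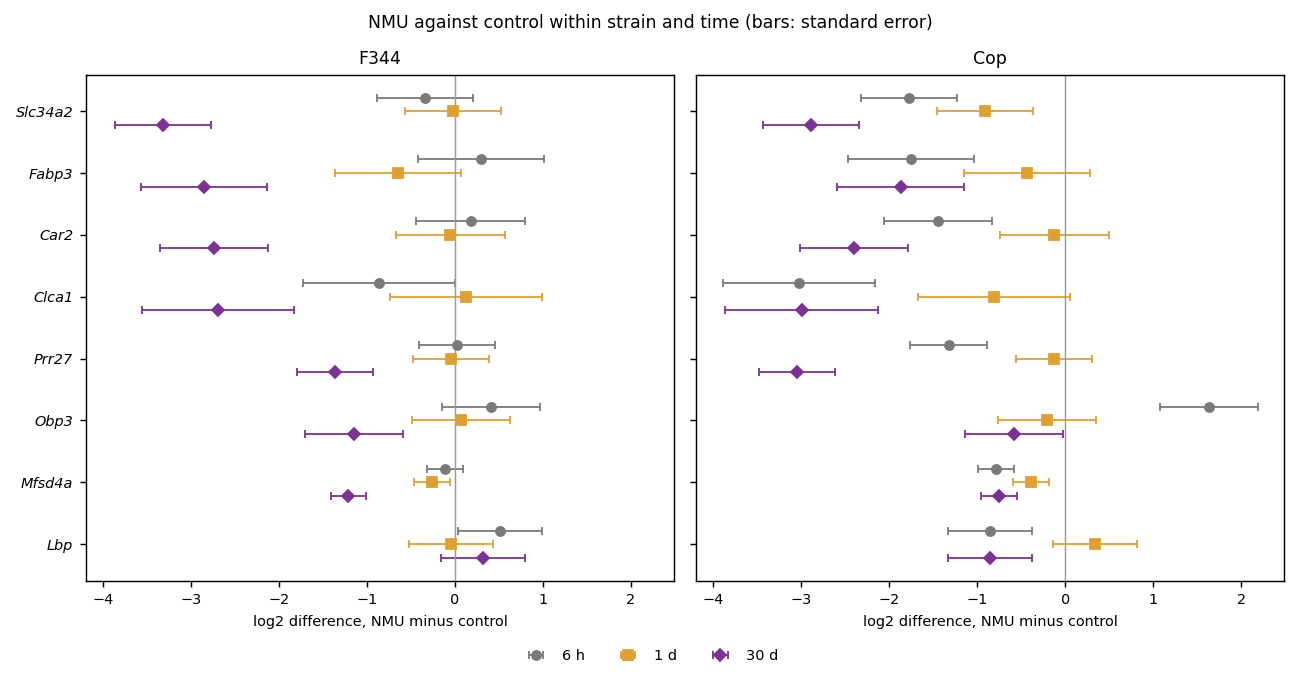
Log2 difference of NMU minus control for each gene at 6 h, 1 d and 30 d, in 1 panel a strain, with circles for 6 h, squares for 1 d, diamonds for 30 d and bars of 1 standard error. At 30 d 6 genes lie well below 0 in both strains. At 6 h values run from -3.03 to 1.63 in Cop and from -0.86 to 0.51 in F344, and at 1 d values lie between -0.91 and 0.34.

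Levels at 30 d were also set against the mean of 6 h and 1 d in the same strain and treatment, as a description. In F344 controls 8 of 8 genes were higher at 30 d, by a median of 2.32, from 1.02 for Mfsd4a to 4.83 for Clca1. The median of all genes tested was 0.05 there. In F344 NMU glands the median was 0.65, with Car2 at -0.12 and Clca1 at 2.50. In Cop controls it was 0.29, with Obp3 at 2.24 and Slc34a2 at 1.19 above the early level, Lbp at 1.37 above it as well, and Fabp3 at -0.80 below it. In Cop NMU glands it was -0.78, with Prr27 at -2.16. The labels give the same age for every group, and time after treatment and later age cannot be told apart. Tissue content shifted as well. In F344 controls the muscle score was 1.60 to 2.73 at 6 h and 1.92 to 2.64 at 1 d. At 30 d it was -3.53 to -0.55. Their luminal score was -0.67 to -0.35, -0.39 to -0.29 and 0.66 to 0.72 at these times. In Cop controls the muscle score was -2.93 to -1.05, -2.51 to -0.83 and -1.09 to -0.45. The part of tissue content in these changes was not tested.

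At 30 d, scores of cell type markers differed between treatments on average, and some overlapped. The muscle score was -3.53, -0.55 and -2.74 in F344 controls and 1.24, 0.81 and -0.50 in F344 NMU glands; 0 of 25 muscle markers were called by limma in this comparison, with 18 at an unadjusted p under 0.05 and a median difference of 2.98. F344 control replicate 2, the lowest control for all 6 genes that separated by treatment, was the control with the highest muscle score. The luminal score was between 0.66 and 0.72 in F344 controls and between 0.24 and 0.41 in NMU glands, and 1 of 22 luminal markers was called lower. In Cop, the luminal score was 0.06 to 0.77 in controls and -1.25 to 0.36 in NMU glands, and 5 of 22 markers were called lower. Of other lists in Cop, limma called 7 of 9 T cell and 3 of 5 B cell markers lower, and 8 of 10 endothelial and 7 of 13 fibroblast and matrix markers higher. Cop controls had T cell scores of 0.49 to 1.13 and B cell scores of 0.66 to 1.15. Cop NMU replicate 1 had 0.81 and 1.24, while replicates 2 and 3 were between -2.80 and -2.51 on both. With the muscle score as a covariate the median difference of the 8 genes was -1.59 in F344 and -2.12 in Cop, and with the luminal score it was -1.88 and -1.81. Lbp in Cop was at 0.22 in the fit with the luminal score, where it was at -0.85 without it. Without F344 control replicate 2 the median in F344 was -2.42, and without Cop control replicate 2 the median in Cop was -1.47. The part of composition in the differences was not tested beyond these fits.

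Genes of the same processes that were not among the 8 were tested at 30 d, where limma called 3.29% of all probe sets in F344 and 9.90% in Cop. Of those calls 545 were lower and 138 higher in F344, and 1138 lower and 917 higher in Cop. Of 14 milk protein genes measured, 2 were called lower in F344 and 7 in Cop. Plin2, which coats milk lipid droplets, fell by 1.15 (SE 0.197, adjusted p = 0.00334) in F344 and by 1.22 (SE 0.197, adjusted p = 0.000648) in Cop. Mfge8, a milk fat globule protein, fell by 0.83 (adjusted p = 0.0297) in F344 and by 1.06 (adjusted p = 0.00361) in Cop. The casein gene Csn1s1 fell by 1.56 in Cop (SE 0.311, adjusted p = 0.00361).

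Of 25 genes of secretory ion and nutrient transport, 6 were called lower in F344, and in Cop 3 were lower and 1 higher. In F344, Slc28a3, a nucleoside transporter, fell by 2.15 (adjusted p = 0.00345), Slc2a1, the glucose transporter, by 0.81 (adjusted p = 0.0150), and Kcnn4, a potassium channel, by 1.15 (adjusted p = 0.0282). In Cop, the zinc transporter Slc30a4 fell by 0.94 (adjusted p = 0.00377) and Kcnn4 by 1.38 (adjusted p = 0.00547), while the calcium pump Atp2b1 rose by 0.56 (adjusted p = 0.0142). These are adjusted p-values of limma over all probe sets. Among 19 genes of alveolar differentiation signalling, Stat5a fell by 0.63 in F344 (adjusted p = 0.0389) and Elf5 by 1.61 in Cop (adjusted p = 0.0157), and the others were not called.

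Relatives of the single genes were tested too. Of 6 carbonic anhydrases 0 were called by limma in either strain, with 1 at an unadjusted p under 0.05 in each, and the 2 Clca relatives gave 0 on both counts. Of 3 fatty acid and retinoid carriers, Fabp5 fell by 0.93 in F344 and by 0.83 in Cop, and Crabp2 fell by 0.77 in Cop. Of 4 lipocalins Apod alone was called, higher by 1.86 in Cop, and of 10 genes of lipopolysaccharide recognition and acute phase Cd14 alone, lower by 0.62 (log2 difference -0.62) in Cop. In F344 those 2 lists had 0 calls by limma, with 2 and 4 genes at an unadjusted p under 0.05. Of 13 Mfsd and sugar carrier genes 3 were called lower in F344 (B4galt1 -0.90, Slc2a1 -0.81, Mfsd11 -0.52) and 2 higher in Cop (Mfsd12 0.70, Slc2a3 0.65). Proliferation genes stood beside them: of 19 genes of G2 and M phase, 14 were called lower in F344 and 8 in Cop.

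The list calls at 30 d depend on the pooled spread, on the composition scores and on single arrays. With the muscle score as a covariate the calls over all probe sets went from 683 to 13 in F344, and 0 milk and 0 transport genes were called there. With the luminal score they went from 2055 to 152 in Cop, with 1 milk and 0 transport genes called lower. With the compared arrays fitted alone, limma called 2 probe sets in F344 and 0 in Cop (2406 at an unadjusted p under 0.05), so no list gene was called. Without F344 control replicate 1 the transport list gave 0 calls in F344 (29 probe sets in all), and without Cop NMU replicate 3 the milk list gave 1 in Cop (231 in all).

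At 6 h and 1 d the genes were tested, since the rule for choosing them names changes at 30 d. Earlier results of all arrays were known when they were chosen. In F344, limma called 0 of the 8 at 6 h and 0 at 1 d, where it called 0.622% and 0.983% of all probe sets, and 0 had an unadjusted p under 0.05 at either time. In Cop at 1 d it called 0 of 8 (0.761% of all), also with 0 at an unadjusted p under 0.05. In Cop at 6 h it called 3 of 8, all lower after NMU, against 6.57% of all probe sets in either direction. Over all probe sets 777 were called higher and 587 lower. There 7 of 8 had an unadjusted p under 0.05 by limma, as had 3923 of the 20749 probe sets tested. Of the 8 genes, 5 had every NMU array below every control, as had 14.5% of all probe sets.

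Clca1 had the largest change in Cop at 6 h: control arrays read 13.18, 13.14 and 13.03 and NMU arrays 12.24, 9.03 and 9.00. It fell by 3.03 (SE 0.865, adjusted p = 0.0338 by limma), or 8.15-fold, and its other probe set fell by 3.29 (adjusted p = 0.0376). NMU replicate 1 stayed near the controls, and replicates 2 and 3 were low. Slc34a2 read 7.14, 8.24 and 7.35 in controls and 6.55, 5.58 and 5.27 after NMU, and fell by 1.77 (SE 0.546, adjusted p = 0.0493). Mfsd4a read 6.47, 7.02 and 6.33 in controls and 6.10, 5.68 and 5.69 after NMU, and fell by 0.79 (SE 0.203, adjusted p = 0.0152). All 3 genes had no overlap between treatments, and all 3 had replicate 1 as the highest NMU array.

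Among the genes not called, Prr27 read 11.33, 12.18 and 11.35 in Cop controls at 6 h and 10.88, 9.93 and 10.08 after NMU, a difference of -1.33 (SE 0.434, adjusted p = 0.0678 by limma). Car2 differed by -1.44 (adjusted p = 0.189), Fabp3 by -1.76 (adjusted p = 0.164) and Lbp by -0.86 (adjusted p = 0.355). Obp3 went the other way. It read 6.57, 6.30 and 6.73 in controls and 7.48, 8.53 and 8.48 after NMU, a difference of 1.63 (SE 0.556, adjusted p = 0.0820). Its other probe set was called higher, by 1.72 (adjusted p = 0.0257), so the call for Obp3 turns on the probe set.

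The 3 calls in Cop at 6 h were close to the threshold and depended on single arrays. Leaving out each of the 6 arrays in turn, Slc34a2 and Clca1 passed in 1 of 6 fits and Mfsd4a in 3 of 6. Without Cop NMU replicate 1, 4 of the 8 were called and Clca1 fell by 4.10, and without Cop NMU replicate 2 or 3, or Cop control replicate 2, limma called 0. With same-numbered control and NMU arrays taken as pairs, Slc34a2 had an adjusted p of 0.0538 by limma and the other calls held. NMU replicate 1 stood apart in composition too, with T cell scores of 0.09, -1.47 and -1.43 on the 3 NMU arrays and 0.73 to 1.32 in controls. The muscle score was -0.49 to 0.71 after NMU and -2.93 to -1.05 in controls, the luminal score -0.27 to 0.26 and 0.00 to 0.30. With the muscle score as a covariate 0 of the 8 were called by limma, with Clca1 at -2.94 (adjusted p = 0.0788), and with the luminal score only Mfsd4a was (adjusted p = 0.0312). Of lists in this comparison, limma called 0 of 25 muscle and 0 of 22 luminal markers, with 2 and 3 at an unadjusted p under 0.05, and 5 of 9 T cell markers, all lower. It called 10 of 13 fibroblast and matrix markers higher (median difference 1.14), 9 of 19 genes of G2 and M phase higher and 4 of 13 adipocyte markers lower. The part of these shifts in the 3 calls was not tested.

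A difference between the strains in the 6 h response was not shown. Tested directly, the Cop response minus the F344 response was called for 0 of 8 genes by limma (0.877% of all probe sets). Of the 8, 2 had an unadjusted p under 0.05: Mfsd4a at -0.67 and Prr27 at -1.35. So had 2269 of the 20749 probe sets tested. The interval for Clca1, -4.69 to 0.36, is wide. At 1 d it was called for 0 of 8 (0.207% of all), with 0 at an unadjusted p under 0.05.

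Control glands of the strains differed early. At 6 h, 8 of 8 genes were higher in Cop on average and 7 had every Cop array above every F344 array, as had 25.8% of all probe sets. Limma called 3 of 8 higher, against 19.0% of all probe sets in either direction. An unadjusted p under 0.05 was found for 5 of 8 genes and for 6746 of the 20749 probe sets tested. At 1 d limma called 3 of 8 higher, against 15.2% of all in either direction (1210 higher and 1939 lower). At that time 5 separated upward, as had 15.7% of all. The comparisons of strain and of treatment share the Cop control arrays, so at 6 h their values are not independent.

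Clca1 carried the largest strain difference. F344 controls read 8.63, 10.25 and 6.12 at 6 h and 7.40, 7.30 and 7.63 at 1 d, and Cop controls read 13.18, 13.14 and 13.03 at 6 h and 12.48, 12.50 and 12.49 at 1 d. Cop was higher by 4.78 (SE 0.865, adjusted p = 0.00046 by limma), or 27.5-fold, at 6 h and by 5.05 (SE 0.865, adjusted p = 0.000291), or 33.1-fold, at 1 d. The other probe set gave 5.37 and 5.69. The calls of Clca1 passed at both times in all 6 fits that left out an array. Under the other settings its highest adjusted p by limma was 0.0505 at 6 h, past the threshold, and 0.00625 at 1 d. The 6 h value was 3.67 without F344 control replicate 3 and 5.74 without replicate 2, since F344 controls were spread widely at that time. At 30 d the same comparison gave -0.21 (SE 0.865), with overlapping arrays.

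**Figure D3:**
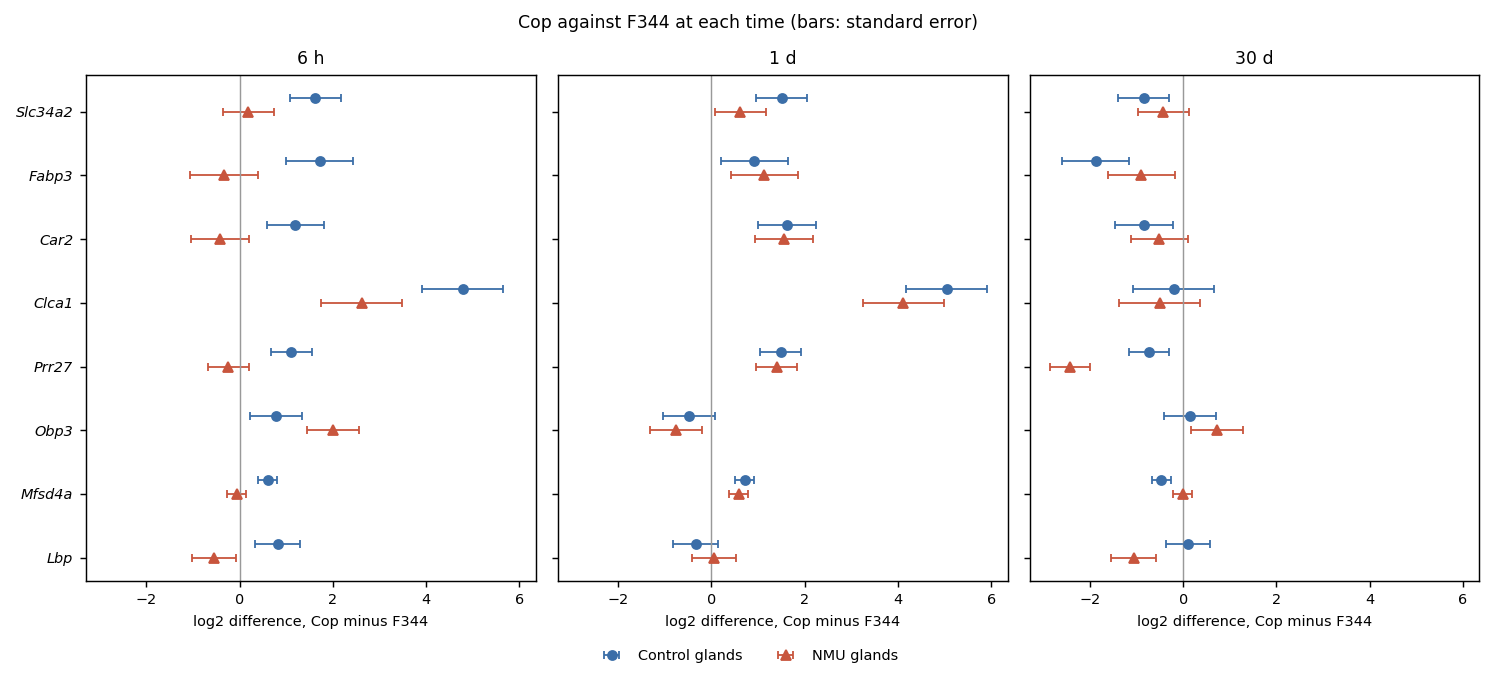
Log2 difference of Cop minus F344 for each gene at 6 h, 1 d and 30 d, with circles for control glands, triangles for NMU glands and bars of 1 standard error. Clca1 in controls lies at 4.78 and 5.05 at the early times and at -0.21 at 30 d, and Prr27 in NMU glands lies at -2.42 at 30 d.

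The other strain calls were smaller. Slc34a2 was higher in Cop controls by 1.62 at 6 h (SE 0.546, adjusted p = 0.0382 by limma) and by 1.51 at 1 d (adjusted p = 0.0631). Mfsd4a was higher by 0.61 at 6 h (SE 0.203, adjusted p = 0.0344) and by 0.71 at 1 d (adjusted p = 0.0154). Both had every Cop array above every F344 array at both times. Prr27 read 10.20, 10.26 and 10.37 in F344 controls at 1 d and 12.08, 11.98 and 11.22 in Cop controls, and was higher by 1.48 (SE 0.434, adjusted p = 0.0201). At 6 h its difference was 1.11 (adjusted p = 0.0730). Car2 differed by 1.20 at 6 h (adjusted p = 0.181) and by 1.62 at 1 d (adjusted p = 0.0780), and its other probe set was called at 1 d, at 1.55 (adjusted p = 0.0305).

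Fabp3, Obp3 and Lbp were not called between the strains. Fabp3 differed by 1.71 at 6 h (adjusted p = 0.0958 by limma) and by 0.92 at 1 d. Obp3 was at 0.78 at 6 h and -0.49 at 1 d, and Lbp at 0.82 and -0.34. At 1 d all Cop arrays lay below all F344 arrays for Obp3 and Lbp, by amounts smaller than their standard errors. At 30 d, as a description, the strain difference in controls was negative for 6 of 8 genes, largest for Fabp3 at -1.88, and Mfsd4a alone had all Cop arrays below F344, at -0.47. The share of all probe sets that separated downward between the strains was not counted at 1 d or 30 d.

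The strain calls at 6 h other than Clca1 were unstable to leaving out an array. Slc34a2 and Mfsd4a each passed in 2 of 6 fits that left out an array at 6 h. At 1 d Mfsd4a passed in 3 and Prr27 in 2. Muscle content separated the strains: the muscle score was 1.60 to 2.73 in F344 controls and -2.93 to -1.05 in Cop controls at 6 h, and 17 of 25 muscle markers were called lower in Cop. At the same time 7 of 22 luminal and 8 of 12 myoepithelial markers were called higher in Cop, and 4 of 14 milk protein genes were, among 19.0% of all probe sets, while 6 of 10 endothelial markers were higher and 7 of 13 fibroblast and matrix markers lower. At 1 d, 17 of 25 muscle and 10 of 13 adipocyte markers were called lower in Cop, and 14 of 19 genes of G2 and M phase, 5 of 12 myoepithelial and 3 of 22 luminal markers higher. With the muscle score as a covariate Clca1 was the only call at 6 h (4.63, adjusted p = 0.00834) and at 1 d (4.90, adjusted p = 0.00625). With the luminal score it was the only call at 6 h (3.88, adjusted p = 0.0115), and at 1 d it was called with Lbp, which then differed by -1.03 (adjusted p = 0.0236). Slc34a2 then differed by 0.34 and 1.03 at 6 h in the fits with the muscle and the luminal score.

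No change of the 8 genes was called between the early times in control glands. In the mean of both strains, 1 d against 6 h was called for 0 of 8 genes by limma (0.183% of all probe sets), with 0 at an unadjusted p under 0.05, and the differences lay between -0.76 for Clca1 and 0.11 for Car2. The interval for Clca1 ran from -2.02 to 0.50.

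Most pairs of the genes varied together within groups, many of them weakly. With each array taken as its deviation from the mean of its 3, the 28 pairs of genes had a Pearson r between -0.43 and 0.76 over 36 arrays, with a median of 0.275, and 23 of 28 were above 0. Among the 6 genes without Obp3 and Lbp, all 15 pairs were above 0, from 0.041 for Fabp3 and Mfsd4a to 0.759 for Slc34a2 and Car2. Obp3 and Lbp were the lowest pair. Arrays of a group share their RNA source with every gene measured on them, so tissue content enters all pairs, and these values carry no test.

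**Figure D4:**
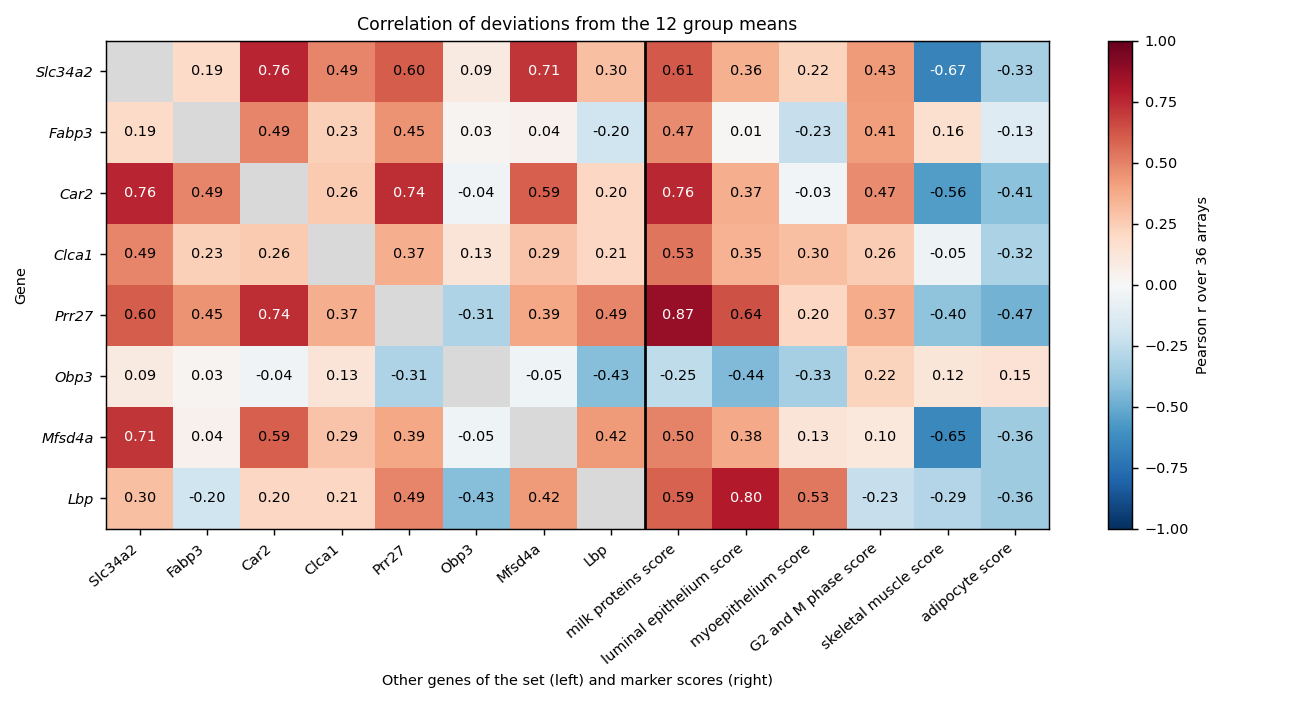
Pearson r between the deviations of each pair of the 8 genes from their group means, and between each gene and 6 list scores, over 36 arrays. The 15 pairs without Obp3 and Lbp are all above 0, highest for Slc34a2 and Car2 at 0.759, and Obp3 and Lbp stand at -0.43.

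The deviations also followed scores of whole lists. Against the milk protein score, r was 0.872 for Prr27, 0.756 for Car2, 0.615 for Slc34a2, 0.591 for Lbp, 0.534 for Clca1, 0.497 for Mfsd4a and 0.473 for Fabp3, and -0.25 for Obp3. Against the luminal score Lbp was highest at 0.796, and Prr27 followed at 0.636. Against the muscle score Slc34a2 stood at -0.67, Mfsd4a at -0.65 and Car2 at -0.56, while Clca1 stood at -0.05. Scores of other cell types gave values of similar size for some genes. Against the endothelial score Prr27 stood at -0.75 and Car2 at -0.62, and against the macrophage score Slc34a2 stood at -0.63. Fabp3 stood at -0.61 against the B cell score and at -0.52 against the T cell score, beyond its value for milk proteins.

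For each gene the genes most like it over the 36 arrays were listed by Pearson r. Prr27 was nearest to Csn1s1 (0.908), then Elf5 (0.887) and Muc4 (0.879), and on deviations to Aldoc (0.939), Csn1s1 (0.887) and Olah (0.885). Slc34a2 was nearest to Plin2 (0.889), Slc28a3 (0.866) and Fam20c (0.863). Car2 was nearest to Slc2a1 (0.883), Mfge8 (0.852) and Elf5 (0.850), and Mfsd4a to Kcnn4 (0.826), Tnik (0.820) and Mfge8 (0.806). On these values the nearest gene was on the milk protein or the transport list for each of these 4, and not for the other members. On deviations this held only for Slc34a2, nearest to Slc30a4 (0.762). Car2 was then nearest to Ccdc85c (0.81) and Mfsd4a to Atg16l2 (0.694), which like Aldoc are on neither list.

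Fabp3 was nearest to Fkbp11 (0.833), Slc50a1 (0.804) and Wap (0.796), the last a whey protein gene. Clca1 was nearest to Ap1m2 (0.855), a sorting adaptor of polarized epithelium, 6330403K07Rikl (0.846) and Nradd (0.843). Lbp was nearest to Cp (0.913), the acute phase protein ceruloplasmin, St6galnac2 (0.908) and Scnn1b (0.892). Obp3 had the weakest likeness, to Tbc1d14 (0.755), Nnat (0.748) and Siglec10 (0.706). Each likeness is over arrays that differ in strain, time and tissue content together.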

How the data were processed

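Expression values were deposited on the log2 scale, 1 per probe set. Per the labels, RNA was prepared with a Qiagen kit and biotin cRNA made from 1 ug of total RNA. The submitters' processing notes name GCOS, with no version. The sources used here do not say how signals were summarised or normalized, and the values were taken as they stand. Of 31099 probe sets, 20832 have 1 gene symbol in GEO's platform annotation, 436 several and 9831 none. Symbols were updated through Entrez identifiers. After leaving out 57 control probe sets, probe sets above the 40th percentile of their array on at least 3 arrays were kept, 20749 in all, for 11509 genes.

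Group means of all 12 groups were fitted with limma 3.58.1 in R 4.3.3 (trend and robust empirical Bayes), with Benjamini-Hochberg adjustment over all probe sets tested, and tested on simulated data. Arrays have no read depth, and their number limits the precision. The genes, lists and tests were chosen with earlier results of these data known. Every contrast with 30 d arrays is a description for the 8 genes. Named are the 8 genes, up to 3 called genes of smallest p per list and strain at 30 d, and for each gene the 3 of highest r. Labels number the replicates in every group. Same-numbered control and NMU arrays deviated together, with every correlation over 0.1, in Cop at 6 h (0.114, 0.142 and 0.435) and at 1 d (0.202, 0.424 and 0.315), and not in the other 4 combinations of strain and time. This pairing comes from the data. Alternatives were another normalization, floors and filters, other fits, composition scores as covariates, a replicate block and leaving out each array. The closing section gives their effect. In the replicate block, same-numbered control and NMU arrays were pairs for the treatment comparisons and their strain difference. For strain and time the block was the replicate number.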

Additional observations from a re-analysis of the deposited data

Results flagged for a closer look

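The strain difference in control glands went in opposite directions at different times for 2 genes, with every array of one strain beyond every array of the other on the probe set that stands for the gene. Obp3 was 0.78 higher in Cop at 6 h, and at 1 d the Cop minus F344 difference was -0.49. On its other probe set the values were 0.40 and -0.20, with overlapping arrays at 1 d, and with the luminal score as a covariate the 1 d difference was -0.03. Mfsd4a was higher in Cop by 0.61 at 6 h and 0.71 at 1 d, and at 30 d the difference was -0.47. With the muscle score as a covariate its early differences were 0.15 and 0.26 (adjusted p = 0.733 and 0.567 by limma). With the luminal score they were 0.38 and 0.57. The muscle score of controls was 1.60 to 2.73 in F344 and -2.93 to -1.05 in Cop at 6 h. At 30 d it was -3.53 to -0.55 in F344 and -1.09 to -0.45 in Cop. The 30 d difference was not fitted with a score, and the part of composition was not tested. The difference between the times was not tested, and the share of all probe sets that switched in this way was not counted.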

How the results depend on the processing

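Among the 8 genes, 211 of 240 values counted as unchanged with an array left out, and 365 of 400 under other settings. Unchanged means the same direction and side of the threshold, or at 30 d a move under the replicate spread. Values that were never called are included. Leaving out 1 of 3 arrays cannot move a 30 d difference by more than that spread, so those values test nothing. A call was lost in 28 of the 240 values and in 20 of the 400, and gained in 1 and 9. Leaving out an array gave 0 to 4 genes called in Cop at 6 h, 1 to 3 between strains at 6 h and 1 to 2 at 1 d, and 0 to 0 in F344 at 6 h and 1 d, in Cop at 1 d, for the strain difference in response and for 1 d against 6 h. The 30 d median ran from -2.42 to -1.68 in F344 and from -2.50 to -1.47 in Cop. Fitting the compared arrays alone called 1 gene in Cop at 1 d and 5 between strains at 1 d. The muscle score as a covariate left 0 calls in Cop at 6 h, 1 between strains at 6 h and 1 at 1 d, and the luminal score left 1 and 1 at 6 h, and turned Lbp between strains at 6 h to -0.33 and Lbp in Cop at 30 d from -0.85 to 0.22. The cause was not tested. The replicate block called 2 genes in Cop at 6 h and changed no other call of the 8 genes. Over all probe sets, other settings than leaving out arrays called 2 to 839 in F344 and 0 to 2545 in Cop at 30 d (lowest with the compared arrays alone, 13 in F344 with the muscle score and 152 in Cop with the luminal score), 7 to 146 in F344 and 822 to 2141 in Cop at 6 h, and 1251 to 4092 between strains at 6 h; the counts as reported are 683, 2055, 129, 1364 and 3942. They called 1106 to 3512 between strains at 1 d (3149 as reported), 122 to 260 in Cop at 1 d (158), 99 to 432 and 22 to 141 for the strain difference in response at 6 h and 1 d (182 and 43), and 19 to 122 for 1 d against 6 h (38). Leaving out an array gave 29 to 1109 in F344 and 231 to 3811 in Cop at 30 d. Quantile normalization changed the split of calls from 138 higher and 545 lower to 273 and 566 in F344 at 30 d. The counts of list genes under each setting were added after seeing the data. The number of arrays, 3 a group, limits what can be seen.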
